A study of Mus musculus with 4 samples.

Results

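Small heat shock proteins and their co-chaperone BAG3 were examined in mouse liver through 5 genes, Hspb1, Hspb6, Hspb8, Cryab and Bag3, taken by symbol from a table of 35275 genes. Each symbol matched 1 row, and all 5 genes reached at least 1 CPM (counted reads scaled to a library of 1000000) in at least 1 library. The liver came from 16 female mice that carry the amyloidogenic Apoa2c allele, with which injected AApoAII fibrils seed systemic deposits of apolipoprotein A-II. Every group shares this allele, and the controls therefore carry it too. The strain was given as AKR/J with a congenic Apoa2c genotype in the sample labels, and as R1.P1-Apoa2c, on the SAMR1 background, in the study's methods.

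Vehicle-injected mice were either sedentary (VS) or trained by treadmill interval exercise (interval training, IT; VI), and fibril-injected mice were likewise sedentary (FS) or trained (FI). All mice were 26 weeks old when liver was taken after the 16-week training period. Each group is 1 library made from the joined liver of 4 mice, which does not measure the spread between mice. Intervals given below cover counting error only, and p-values come only from an additive model of fibril and training over the 4 libraries. Since whole liver was sequenced, fewer cells of a type and less RNA per cell cannot be told apart.

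Small heat shock proteins are ATP-independent chaperones that share the alpha-crystallin domain and hold unfolding proteins in a form that other chaperones can refold or degrade. HSPB1 and alphaB-crystallin (Cryab) form large oligomers, and HSPB1 is a classical substrate of the kinase MK2 downstream of p38 MAPK. HSPB8 acts with BAG3, which links client proteins held by HSP70 to selective autophagy, and HSPB6 is best known from muscle. Several of these genes are induced through heat shock factor 1 (HSF1), which binds inverted repeats of the bases GAA.

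The promoter windows of the members are shown first because the inverted repeat can be read in them directly. RefSeq windows on GRCm38.p6, from 250 bases before to 50 after an annotated start, were found for 4 of the 5 genes; Cryab was not among them. A search of both strands for the head-to-head core GAANNTTC found it in 4 of their 5 windows, 1 each of Hspb1, Hspb6, Hspb8 and Bag3. Of all 32851 windows of the same length, 2582 (7.86%) held this core, as did 9 of 20 windows of the HSF1 target genes described further below. The stretches of 30 bases that hold the core are given on the strand of each gene, with the core in capitals.

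Hspb1, chr5:135887791-135887820, plus strand, core starting 117 bases before the start site: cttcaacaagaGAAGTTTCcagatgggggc

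Hspb1, chr5:135887811-135887840, plus strand, core starting 97 bases before the start site: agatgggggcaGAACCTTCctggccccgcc

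Hspb6, chr7:30553170-30553199, plus strand, core starting 120 bases before the second of its annotated starts: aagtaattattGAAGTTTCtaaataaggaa

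Hspb8, chr5:116422844-116422873, minus strand, core starting 2 bases after the start site: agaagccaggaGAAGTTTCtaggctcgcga

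Bag3, chr7:128523603-128523632, plus strand, core starting 42 bases after the start site: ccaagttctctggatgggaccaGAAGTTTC

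The 4 genes with a window held the same 8 letters, GAAGTTTC, which 398 of the 32851 windows (1.21%) contained on either strand and none of the 20 windows of HSF1 target genes. These letters were singled out after the windows had been read. The tail-to-tail core TTCNNGAA was found in no member window and in 2799 (8.52%) of all windows, and the TATA box letters TATAAA in 1 Hspb6 window only, against 4473 (13.6%) of all. Both Hspb1 cores lie near the middle of the 250 bases that precede its start, chr5:135887669-135887918 on the plus strand, shown because Hspb1 is the gene on which the comparisons turn. A match is a description of letters and was not tested as a binding site.

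Hspb1, 250 bases before the start site: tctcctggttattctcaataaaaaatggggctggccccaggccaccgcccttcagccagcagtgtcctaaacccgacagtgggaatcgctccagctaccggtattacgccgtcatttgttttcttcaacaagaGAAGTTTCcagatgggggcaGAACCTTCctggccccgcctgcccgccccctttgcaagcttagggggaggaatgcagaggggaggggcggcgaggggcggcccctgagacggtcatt

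The 4 libraries held between 23442935 and 28814802 counted reads, and a count of 0 allowed up to 3 counts, between 0.102 and 0.127 CPM. Albumin took between 12.1% and 13.6% of the counts, and the 8 hepatocyte markers were detected in every library. The VS library stood apart by skeletal muscle transcripts: 15 marker genes, among them Acta1, Myh4, Mb and Ckm, summed to 81.1 CPM there, against 10.8 CPM in VI, 1.19 in FS and 1.12 in FI. Of these 15 markers, 1 was at 0 in each vehicle library, 4 in FS and 9 in FI. Among other cell types, the summed CPM ranged from 167 to 202 for stellate cell, 12.7 to 20.4 for cholangiocyte, 151 to 178 for endothelial cell, 2.88 to 3.59 for adipose and 1.89 to 3.85 for lymphocyte markers. Both comparisons against VS rest on the VS library, and both comparisons of FI rest on the FI library.

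HSPB8 transcripts dominated the family in all 4 libraries. On the length-normalised FPKM scale, Hspb8 stood at 81.8 in both vehicle libraries, at 124 in FS and at 111 in FI. It made up 78.0% (VS), 87.4% (VI), 92.7% (FS) and 80.2% (FI) of the FPKM summed over 10 small heat shock protein genes. Hspb1 was second, with 14.2% (VS), 7.63% (VI), 3.96% (FS) and 16.7% (FI) of this sum. The level of Hspb8 was therefore 5.51 (VS), 11.4 (VI), 23.4 (FS) and 4.79 (FI) times that of Hspb1. Among all genes, Hspb8 ranked between place 499 and 768 by FPKM and Hspb1 between place 1910 and 5652.

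Hspb6 and Cryab were low. Hspb6 reached 4.05 FPKM in VS and between 2.45 and 2.76 elsewhere, and Cryab 3.06 FPKM in VS and between 1.19 and 1.72 elsewhere. Their counting intervals overlapped in VS (3.49 to 4.67 FPKM for Hspb6 and 2.44 to 3.78 for Cryab) and in none of VI, FS and FI, where Hspb6 was the higher. Bag3 transcripts lay between 6.46 and 8.41 FPKM, and the FPKM of Hspb8 was 11.4 (VS), 9.88 (VI), 14.7 (FS) and 17.3 (FI) times that of its partner. Of the other relatives, Hspb7 reached 1.74 CPM in VS and is described further below, while the rest were close to absent: Hspb2 had 3 or 4 reads a library, Hspb3 at most 2, Hspb9 at most 4, and the lens crystallin Cryaa and the sperm protein gene Odf1 had 0 reads in each library.

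**Figure D1:**
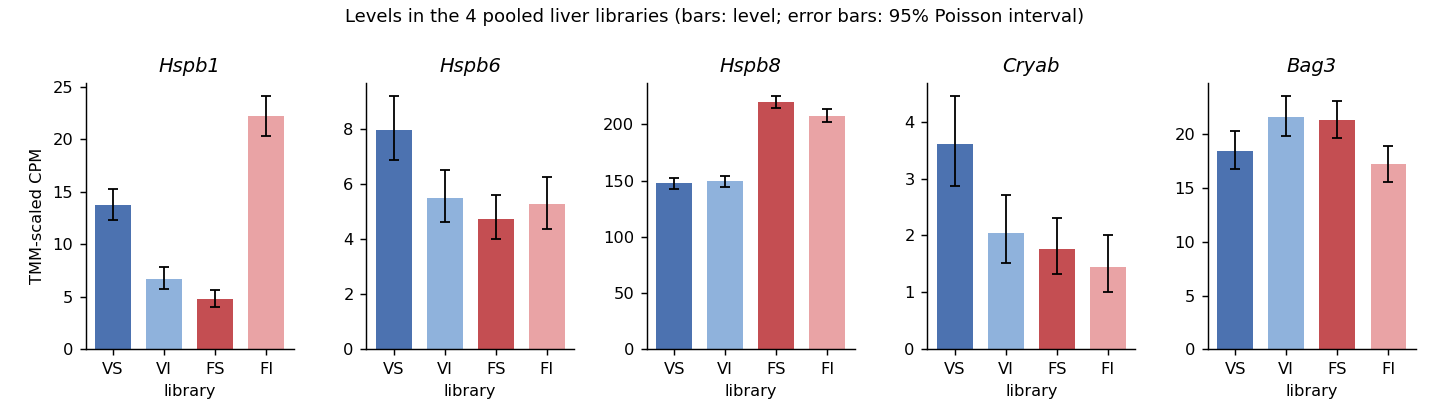
Levels of the 5 genes in TMM-scaled CPM (y axes, each from 0) in the 4 pooled libraries (x axes), with 95% Poisson intervals as error bars. Hspb1 is high in VS and FI and low in VI and FS, Hspb8 is high in both fibril libraries, Hspb6 and Cryab are highest in VS, and Bag3 stays between 17.2 and 21.6 CPM.

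Hspb1 (ENSMUSG00000004951, chr5:135887919-135889563, plus strand), the p38 and MK2 substrate, had the widest range of the 5 genes in fold terms. The vehicle pools had 324 reads (VS) and 163 reads (VI) and the fibril pools 142 (FS) and 536 (FI), which is 13.7, 6.69, 4.81 and 22.2 CPM after scaling by the trimmed mean of M-values (TMM). The sedentary vehicle pool and the trained fibril pool were thus high, the other two pools were low, and the Poisson interval of FI (20.3 to 24.1 CPM) lay above that of VS (12.3 to 15.3 CPM).

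Training was accompanied by opposite differences of Hspb1 in the 2 backgrounds. Without fibrils it was 2.05-fold lower in VI than in VS (log2 ratio −1.03, 95% counting interval −1.32 to −0.76). With fibrils it was 4.59-fold higher in FI than in FS (log2 ratio 2.20, interval 1.93 to 2.48), the 14th highest ratio of 12180 genes with at least 1 CPM in 1 library. Hspb1 was 1 of 12 genes (0.0985% of those 12180) that were more than 2-fold lower in VI than in VS and more than 2-fold higher in FI than in FS. Among the other 11 were Mylpf and Tnni2, which are on the skeletal muscle list and were named after their values were seen. Their FI to FS ratios rest on few reads, 14 against 6 for Mylpf and 3 against 1 for Tnni2.

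Between fibril and vehicle pools the same counts give the mirror pair. Hspb1 was 2.84-fold lower in FS than in VS (log2 ratio −1.51, interval −1.81 to −1.22) and 3.30-fold higher in FI than in VI (log2 ratio 1.72, interval 1.47 to 1.99). The log2 ratio FI to FS minus the log2 ratio VI to VS came to 3.23 (counting interval 2.85 to 3.61), the 11th highest of 12180 genes. With 1 library a group no error between mice exists for this difference, and it was not tested. Against VS the FI level gave a log2 ratio of 0.69 (interval 0.49 to 0.89). The study also measured liver Hspb1 mRNA in individual mice by real-time PCR. It reported higher levels in VI and in FS than in VS, unlike the ratios here, and a further rise in FI. Its own RNA-seq call of Hspb1, higher in FI than in FS, had the same direction as here. By western blot of liver it reported more total HSPB1 protein in the trained groups, with an additive rise in FI.

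The additive model, in which the residual is this very departure, gave Hspb1 a log2 change of 0.60 with training (SE 1.12, adjusted p = 0.87) and of 0.15 with fibril (SE 1.12, adjusted p = 0.96; quasi-likelihood test of edgeR, p-values adjusted by Benjamini-Hochberg over 11760 genes). Neither passed the threshold of 0.05. The FI value of Hspb1 stood beside the lowest sum of skeletal muscle markers (1.12 CPM), of which 9 of 15 were at 0 in that library. In FS, with a similar sum of 1.19 CPM, Hspb1 had its lowest value (4.81 CPM). The part of muscle transcripts in the 13.7 CPM of VS was not tested. The 2 comparisons that leave out VS, FI versus FS and FI versus VI, had log2 ratios of Hspb1 above 1.

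**Figure D2:**
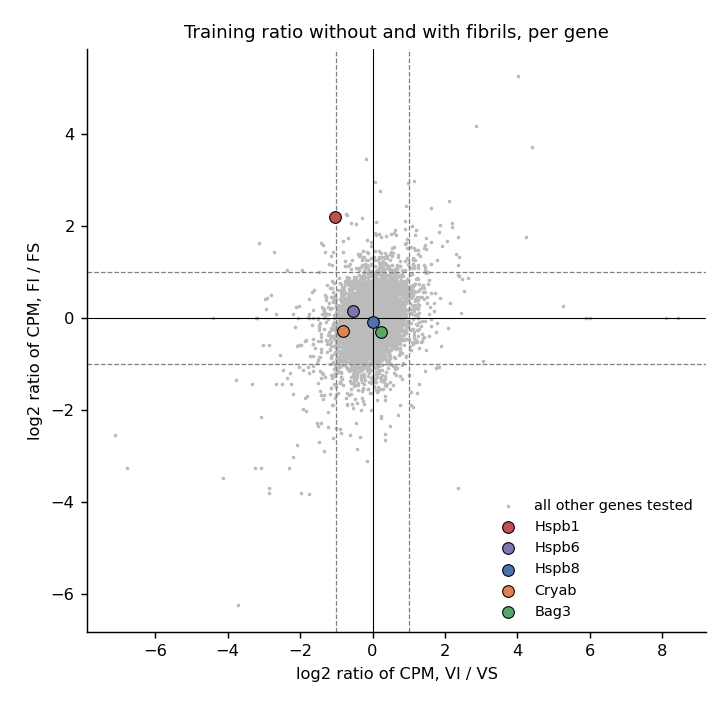
Each point is 1 of 12180 genes, with the log2 ratio of CPM between VI and VS on the x axis and between FI and FS on the y axis; dashed lines mark 2-fold. Hspb1 lies in the upper left field at −1.03 and 2.20, while Hspb6, Hspb8, Cryab and Bag3 lie inside the 2-fold lines on both axes.

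The likeness of 2 genes in their pattern over the libraries was measured as the Euclidean distance between their centred log2 CPM over all 4, among named genes with at least 5 CPM in 1 library. The nearest to Hspb1 was Asic5, an ion channel gene, at a distance of 0.77. Next came Txnip, which encodes thioredoxin-interacting protein, at 0.80, with 171 (VS), 183 (VI), 91.8 (FS) and 392 (FI) CPM. Then followed Prss22 (0.98), Shank3 (1.05) and Phc1 (1.05). This distance grows with the size of a gene's own differences, so the distances of different members are not comparable.

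Hspb8 (ENSMUSG00000041548, chr5:116408491-116422864, minus strand), the chaperone partner of BAG3, separated the fibril from the vehicle libraries. The vehicle pools had 3484 (VS) and 3643 (VI) reads and the fibril pools 6491 (FS) and 5018 (FI), or 148, 150, 220 and 207 CPM. Both fibril pools were above both vehicle pools, and the 2 vehicle pools could not be separated by counting error. Hspb8 was 1.49-fold higher in FS than in VS (log2 ratio 0.58, interval 0.52 to 0.64) and 1.39-fold higher in FI than in VI (log2 ratio 0.47, interval 0.41 to 0.53).

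Hspb8 rose with fibril in the additive model, by a log2 change of 0.52 (SE 0.12, adjusted p = 0.041 by the same edgeR test), and was higher in 2 of 2 fibril libraries. It was the only one of the 5 genes called with fibril, where 4.97% of the 11760 genes tested were called, and 0 of the 5 were called with training, where 1.48% were; DESeq2 and limma-voom also called 0 with training, and 0 of the 5 had an unadjusted p under 0.05 there. Over all genes, at an unadjusted p under 0.05, 2512 passed with fibril and 1726 with training. With DESeq2's Wald test in the same design the adjusted p of Hspb8 was 0.0502, which no longer passed, and over all 6 alternatives it lay between 0.0013 and 0.0502.

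Between trained and sedentary pools Hspb8 differed little on either background. The log2 ratio was 0.02 between VI and VS (interval −0.05 to 0.09), a sign that turned with total counts or FPKM as the scale, and −0.08 between FI and FS (interval −0.14 to −0.03). The additive change with training was −0.03 (SE 0.11, adjusted p = 0.94 in the edgeR fit). The difference between both ratios was −0.10 (interval −0.19 to −0.02).

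Markers of Kupffer cells, the liver's resident macrophages, differed in the same direction as Hspb8 between fibril and vehicle. The 5 markers found of 6 listed (Clec4f, Vsig4, Timd4, Cd5l and Marco) summed to 179 (VS), 227 (VI), 277 (FS) and 268 (FI) CPM, and none was at 0 in any library. All 5 were higher in FS than in VS and in FI than in VI, the latter in 4 of 5 with total counts or FPKM as the scale, and 1 of the 5, Marco, was called with fibril (adjusted p = 0.034 by edgeR's quasi-likelihood test), where 4.97% of all genes were; with DESeq2's Wald test Marco was not called (adjusted p = 0.071). In VI, where this sum was above that of VS, Hspb8 stood at 150 CPM. Other lists also held a gene called upward with fibril by edgeR: Lyve1 of 6 endothelial and Sox9 of 2 cholangiocyte markers tested. DESeq2's Wald test called 1 of the endothelial and 0 of the cholangiocyte markers with fibril. Of the endothelial markers 3 were higher and 3 lower with fibril, and of the cholangiocyte markers 1 and 1. The part of any of these cell types in the Hspb8 difference was not tested.

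The genes whose pattern was most like that of Hspb8 were Tssc1 (distance 0.015), C2cd2l (0.027) and Col4a1 (0.055), the last a collagen of basement membranes. Col4a1 had 10.4 (VS) and 10.5 (VI) CPM against 15.8 (FS) and 15.3 (FI), so it too was higher in both fibril libraries. The pattern was common, with 361 genes at a distance under 0.25 from Hspb8.

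Bag3 (ENSMUSG00000030847, chr7:128523583-128546977, plus strand) varied little, with the high and low libraries of Hspb1 exchanged. Reads numbered 435 (VS), 526 (VI), 628 (FS) and 415 (FI), or 18.4, 21.6, 21.3 and 17.2 CPM. VI and FS, the 2 libraries where Hspb1 was low, were those where Bag3 was high. It was 1.17-fold higher in VI than in VS (log2 ratio 0.23, interval 0.04 to 0.42) and 1.24-fold lower in FI than in FS (log2 ratio −0.31, interval −0.49 to −0.13).

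The 2 fibril ratios of Bag3 also had opposite signs. It was 1.15-fold higher in FS than in VS (log2 ratio 0.21, interval 0.03 to 0.39) and 1.26-fold lower in FI than in VI (log2 ratio −0.33, interval −0.52 to −0.14). The difference between the IT ratios was −0.54 (interval −0.79 to −0.28), and differences of at least this size in either direction were common: 19.3% of the 12180 genes had a larger one. The additive changes were −0.07 with fibril (SE 0.16, adjusted p = 0.86) and −0.04 with training (SE 0.16, adjusted p = 0.94, both by edgeR's quasi-likelihood test). Nearest in pattern to Bag3 were Ttc27 (distance 0.029), Tapt1 (0.034) and Rnf41 (0.036). This pattern was common too, with 939 genes at a distance under 0.25 from Bag3.

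None of the other BAG family genes had its 2 highest CPM in VI and FS. Bag1, which regulates the HSP70 cycle, lay between 86.2 and 93.8 CPM, and Bag6, which handles misfolded membrane proteins, between 78.1 and 92.8 CPM. Bag2, an inhibitor of the ubiquitin ligase CHIP, was low, between 1.64 and 2.20 CPM. Bag4 was higher in VI than in VS (log2 ratio 0.47, interval 0.30 to 0.64) and in FI than in FS (0.30, interval 0.13 to 0.47), and so was Bag5 (0.49, interval 0.29 to 0.70, and 0.41, interval 0.23 to 0.60). None of the 6 BAG genes was beyond 2-fold in any of the 4 comparisons, where 3.44% to 5.78% of all genes were. With fibril or training 0 of 6 were called, where 4.97% and 1.48% of all genes were. The adjusted p with training was 0.23 for Bag4 and 0.18 for Bag5 (edgeR's quasi-likelihood test). At an unadjusted p under 0.05, 0 of the 6 passed with fibril and 2, Bag4 and Bag5, with training. Of all 11760 genes, 2512 passed with fibril and 1726 with training. DESeq2 and limma-voom called 0 of the 6.

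**Figure D3:**
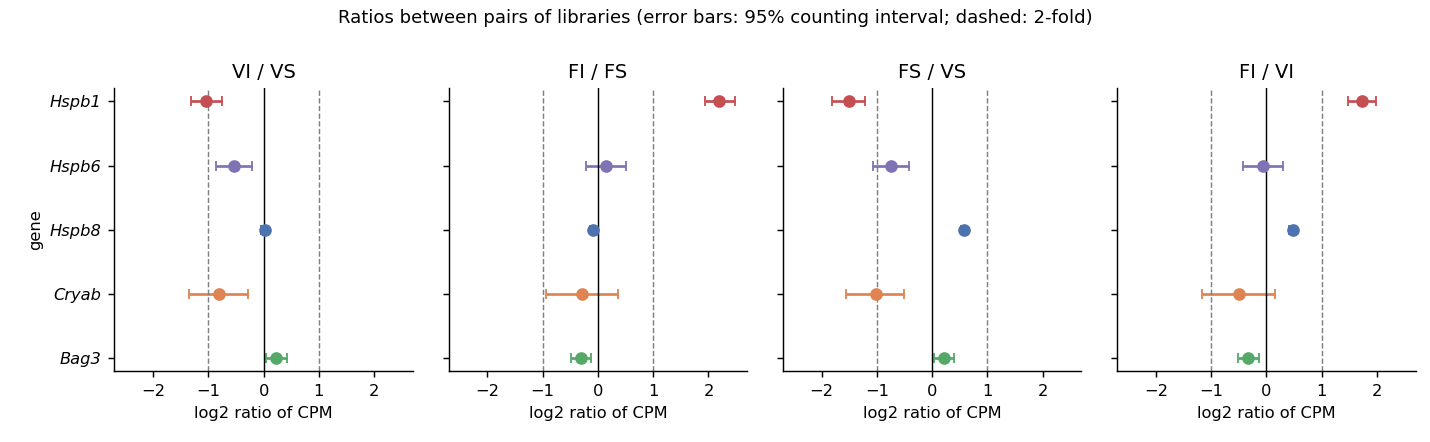
Log2 ratios of CPM (x axes) of the 5 genes (rows) for the pairs VI and VS, FI and FS, FS and VS, and FI and VI, with 95% counting intervals as error bars and dashed lines at 2-fold. Hspb1 crosses 2-fold in all 4 pairs and in both directions, Cryab reaches −1.02 in FS versus VS, and Hspb8 and Bag3 stay inside the lines.

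Cryab (ENSMUSG00000032060, chr9:50752758-50756633, plus strand), which encodes alphaB-crystallin, was highest in VS. VS held 85 reads, VI 50, FS 52 and FI 35, or 3.60, 2.05, 1.76 and 1.45 CPM. The intervals of VI, FS and FI overlapped each other, and that of VS (2.88 to 4.45 CPM) lay above all 3. Cryab was 1.75-fold lower in VI than in VS (log2 ratio −0.80, interval −1.34 to −0.29) and 2.03-fold lower in FS than in VS (log2 ratio −1.02, interval −1.56 to −0.52).

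On the fibril side the training ratio of Cryab was −0.28 (interval −0.95 to 0.36), and FI against VI gave −0.50 (interval −1.17 to 0.15), neither of which was separable from 0 at this depth. The additive changes were −0.80 with fibril (SE 0.30, adjusted p = 0.17) and −0.57 with training (SE 0.30, adjusted p = 0.43, both by edgeR's quasi-likelihood test). By real-time PCR of liver in individual mice, the study reported no change of Cryab with training or amyloidosis. The divergent neighbour Hspb2, 404 bases away in the table, had at most 4 reads a library. Wee1, a cell cycle kinase gene, was nearest in pattern to Cryab (distance 0.053), followed by Aldh1a1 (0.13), which encodes a retinaldehyde dehydrogenase, and Rnf152 (0.14).

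Hspb6 (ENSMUSG00000036854, chr7:30552178-30555443, plus strand), the muscle-enriched member known as HSP20, was likewise highest in VS. VS held 188 reads, VI 134, FS 140 and FI 127, or 7.96, 5.50, 4.74 and 5.25 CPM. VI, FS and FI could not be separated by counting error, and VS lay above them. The log2 ratio was −0.53 between VI and VS (interval −0.86 to −0.21), −0.75 between FS and VS (interval −1.07 to −0.42), 0.15 between FI and FS (interval −0.21 to 0.50) and −0.07 between FI and VI (interval −0.43 to 0.29).

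Hspb6 was not called in the additive model, with −0.42 for fibril (SE 0.22, adjusted p = 0.32) and −0.20 for training (SE 0.22, adjusted p = 0.74, both by edgeR's quasi-likelihood test). The ends of this gene overlap Lin37 and BC053749 on the other strand, which had between 125 and 186 and between 17 and 34 reads over their whole length. Both overlaps are short: Lin37 starts at base 30555441 and BC053749 ends at 30552296, while Hspb6 spans 30552178 to 30555443. The sources used here do not give whether strand was used in the counting, so reads in the overlaps are uncertain. Nearest to Hspb6 were Rassf7 (distance 0.078), Nlrp6 (0.088) and Pex6 (0.094), the last a peroxisome biogenesis gene.

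Hspb7, a relative of the same family that is known from heart and skeletal muscle, had 41 reads in VS and 5 (VI), 9 (FS) and 10 (FI) elsewhere. It was lower in VI than in VS (log2 ratio −2.96, interval −4.78 to −1.74) and in FS than in VS (log2 ratio −2.44, interval −3.74 to −1.45). Hspb6, Hspb7 and Cryab were each highest in VS, which also held the most skeletal muscle transcripts. These 3 genes were set side by side after their values were seen. Hspb8, another relative that muscle expresses, was lower in VS than in both fibril libraries. Hspb2, with 3 or 4 reads in every library, and Hspb3, with 2 in VS and 0 elsewhere, were too low to rank. Between VI and FS the skeletal sum differed further, 10.8 against 1.19 CPM, while Hspb6 stood at 5.50 and 4.74 CPM and Cryab at 2.05 and 1.76 CPM with overlapping intervals. Of the 12 skeletal muscle markers with at least 1 CPM in any library, all 12 were lower in VI, and all 12 in FS, than in VS. Only 4 of them reached 1 CPM in 2 or more libraries. The rest did so in VS alone, so the filter fixed their direction in advance. Over all 12180 genes, 6001 were lower in VI and 5843 in FS than in VS. The 7 smooth muscle markers summed to 17.7 (VS), 14.3 (VI), 11.7 (FS) and 13.3 (FI) CPM, with none at 0. The part of muscle transcripts in these values was not tested.

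**Figure D4:**
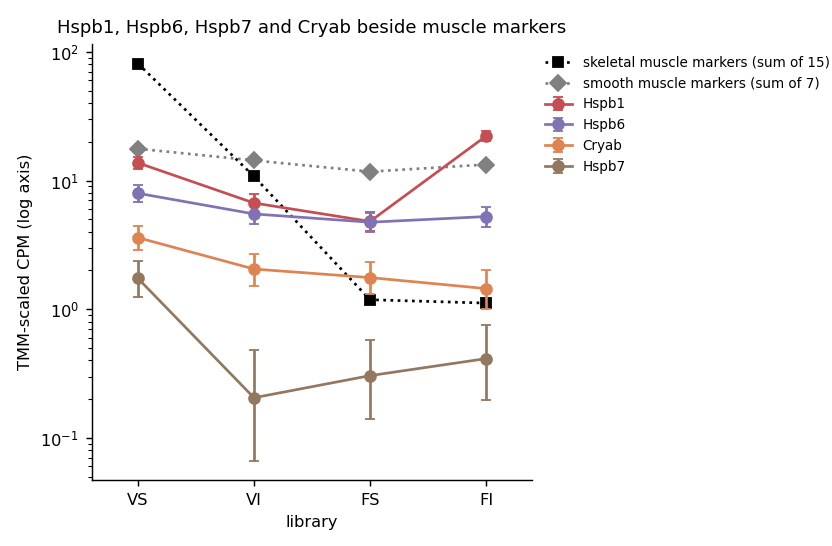
Levels of Hspb1, Hspb6, Hspb7 and Cryab (solid lines, with 95% Poisson intervals) and the sums of 15 skeletal and 7 smooth muscle markers (dotted lines) in TMM-scaled CPM on a log axis, by library. The skeletal sum drops from 81.1 CPM in VS to 1.19 CPM in FS, where Hspb1 is at its lowest, 4.81 CPM. It is 1.12 CPM in FI, where Hspb1 is at its highest, 22.2 CPM. Lines join libraries only to guide the eye.

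Counted over the members, 1 of 5 (Hspb1) was beyond 2-fold between VI and VS, where 3.44% of the 12180 genes were. Between FI and FS it was again 1 of 5 (Hspb1), with 4.26% of all genes, and between FI and VI 1 of 5 (Hspb1), with 4.54%. Between FS and VS, 2 of 5 (Hspb1 and Cryab) were beyond 2-fold, with 5.78% of all genes. Cryab crossed this line by a small margin and was inside it with total counts as the scale.

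The median log2 ratio of the 5 genes was −0.53 between VI and VS, −0.08 between FI and FS, −0.75 between FS and VS and −0.07 between FI and VI, where the median over all genes lay between 0.00 and 0.02.

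The wider heat shock programme was compared through a list of 19 genes, HSF1, related factors and chaperones that HSF1 is known to induce, of which 18 reached 1 CPM. All 18 were lower in VI than in VS, with a median log2 ratio of −0.45, and all 18 in FS than in VS, with a median of −0.46, although Chordc1 (−0.00) changed sign with total counts or FPKM as the scale. Over all 12180 genes, 6001 were lower in VI and 5843 in FS than in VS. Both comparisons share the VS library, which stood apart by its skeletal muscle transcripts (81.1 CPM), and the part of that library in the list's direction was not tested. Between FI and FS 11 were higher and 7 lower, with a median of 0.12, and between FI and VI also 11 and 7, with a median of 0.06.

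Only Hspa1b, the inducible HSP70, was called among the 18 genes, with fibril (4.97% of all 11760 genes) and with training (1.48%) alike. It had 1169 reads in VS and 437 (VI), 512 (FS) and 187 (FI) elsewhere, and its additive log2 change was −1.38 with fibril (SE 0.14, adjusted p = 0.0031) and −1.32 with training (SE 0.14, adjusted p = 0.0046, both by edgeR's quasi-likelihood test). Hspb1 and Hspa1b were both low in VI and FS, but in FI Hspa1b had its lowest level and Hspb1 its highest. Other list genes, among them Hsp90aa1, Hsp90ab1, Stip1, Ahsa1 and Hspa4l, had their 2 highest CPM in VS and FI, as Hspb1 did. Hspa8, Hsph1, Dnajb1, Dnaja1 and Chordc1 were among those that did not. These genes were named after their values were seen. The near-identical copy of Hspa1b, Hspa1a, had between 1 and 11 reads, and reads shared by the 2 genes may have been split or lost in the counting. The study's real-time PCR of liver in individual mice was reported without a change of Hspa1b with training or amyloidosis, unlike the counts here.

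Hsp90aa1, the stress-inducible cytosolic HSP90, was the other list gene beyond 2-fold in a comparison, beside Hspa1b, where 3.44% to 5.78% of all genes were. Its log2 ratio was −1.30 between VI and VS (interval −1.38 to −1.23), 0.49 between FI and FS (0.42 to 0.55), −0.62 between FS and VS (−0.69 to −0.56) and 1.16 between FI and VI (1.09 to 1.24). Hsf1 itself differed by log2 ratios between −0.22 and 0.23. Hspa8, the constitutive HSP70 that BAG3 binds, was lower in VI (−0.36, interval −0.38 to −0.33) and in FS (−0.71, interval −0.74 to −0.69) than in VS.

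**Figure D5:**
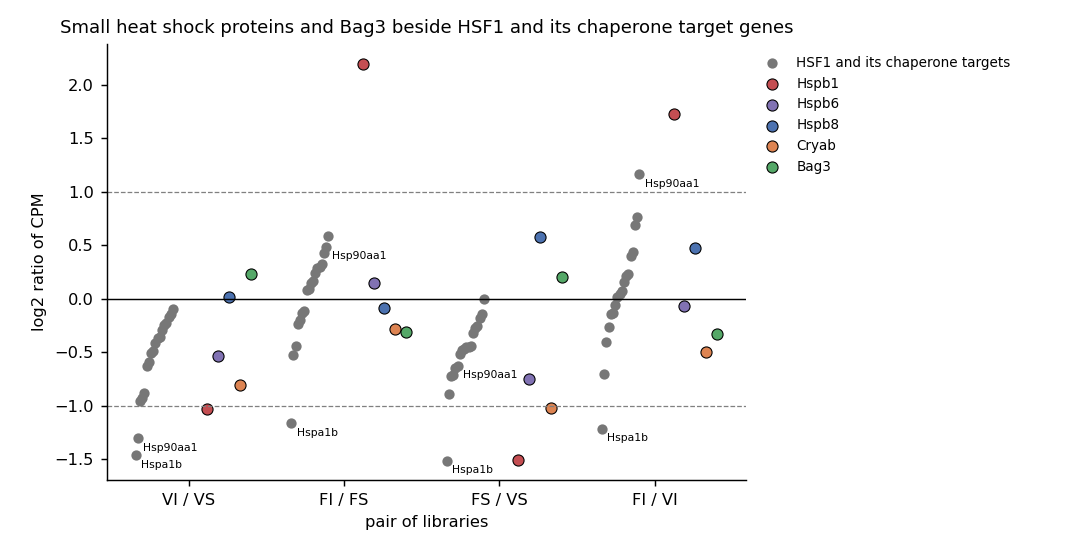
Log2 ratios of CPM (y axis) for 18 genes of HSF1 and its chaperone targets (grey, sorted within each pair of libraries) beside the 5 genes examined (coloured); dashed lines mark 2-fold. All grey points lie below 0 for VI / VS and FS / VS, where Chordc1 in FS / VS (−0.00) changed sign with total counts or FPKM, Hspa1b is the lowest grey point in each pair, and Hspb1 is above every grey point for FI / FS and FI / VI.

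Transcripts of the kinases upstream of HSPB1 stayed inside 2-fold, some of them by a small margin. None of the 10 genes of the p38 and MK2 list with at least 1 CPM was beyond 2-fold in any comparison. Over all genes, 3.44% to 5.78% were, depending on the comparison. With either factor, 0 of 10 were called by edgeR, DESeq2 or limma-voom. Over all genes, edgeR called 4.97% with fibril and 1.48% with training. At an unadjusted p under 0.05, 2 of 10 passed for each factor, against 2512 (fibril) and 1726 (training) of all 11760 genes. Counts of 0 among 10 genes do not set this list apart. Mapk14, which encodes p38 alpha, had log2 ratios of 0.11 between VI and VS (interval 0.02 to 0.20) and 0.29 between FI and FS (0.20 to 0.38). The largest ratio was that of Map2k6, which encodes the p38 kinase MKK6, at 0.98 between FI and FS (0.83 to 1.12) and 0.88 between FI and VI (0.72 to 1.03). Map3k5, which encodes the upstream kinase ASK1, gave 0.68 in both of these comparisons (0.58 to 0.77 and 0.59 to 0.78). Mapkapk3, a relative of MK2 with 22 to 53 reads, was at −0.97 between FI and FS (−1.77 to −0.24) and 0.87 between FS and VS (0.15 to 1.66). Mapkapk2, which encodes MK2, was higher in VI than in VS (0.44, interval 0.34 to 0.54) and in FI than in FS (0.38, interval 0.29 to 0.47), with an adjusted p of 0.13 for training (edgeR's quasi-likelihood test). These are transcript levels, and the phosphorylation by which this pathway acts is not measured by them.

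The partners of BAG3 in selective autophagy gave 1 gene beyond 2-fold among 11 with at least 1 CPM, in FS versus VS, where 5.78% of all genes were. Wipi1, which acts in autophagosome formation, had 154 (VS), 264 (VI), 404 (FS) and 355 (FI) reads, and was higher in FS than in VS (log2 ratio 1.07, interval 0.80 to 1.35). In the additive model it did not pass with fibril (0.74, SE 0.19, adjusted p = 0.062 in the edgeR fit). With either factor, 0 of these 11 genes were called by edgeR, DESeq2 or limma-voom, while 4 with fibril and 2 with training had an unadjusted p under 0.05. Of all 11760 genes, edgeR called 4.97% with fibril and 1.48% with training. An unadjusted p under 0.05 was found for 2512 and 1726 of them.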

How the data were processed

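Liver RNA of 4 mice was pooled per group, and 1 library each was sequenced for VS, VI, FS and FI. The authors deposited raw read counts per gene; per the labels' processing notes, fastp 0.23.2, STAR 2.5, HTSeq 0.6.1 and the mm10 genome were used, and the sources used here give no strand setting. The authors also deposited FPKM, which equalled count divided by gene length and library total to within a relative deviation of 3.1e-07. FPKM served to compare levels between genes.

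Counts were scaled by TMM, and ratios used a prior of 0.5 counts for the 12180 genes that reached 1 CPM in any library, with Clopper-Pearson 95% intervals. As each group is 1 library, pairs of libraries were not tested. The quasi-likelihood method of edgeR, with robust estimation, was used for an additive model of fibril and training over the 11760 genes that reached 1 CPM in 2 or more libraries; it leaves 1 residual degree of freedom, and p-values were adjusted by Benjamini-Hochberg, with a threshold of 0.05. Its p-values take the departure from additivity, moderated over genes, as the error. R 4.3.3, edgeR 4.0.16, DESeq2 1.42.0, limma 3.58.1, Python 3.11.15, scipy 1.17.1 and matplotlib 3.10.9 were used, and the model was tested on simulated data. Other settings tried were scaling by DESeq2 or by total counts, FPKM with pseudocounts of 1 or 0.1, other filters, a 1.5-fold threshold, DESeq2, limma-voom, no robust estimation and, chosen after seeing the data, TMM over all genes and the comparisons without VS.

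The members and gene lists were chosen with earlier results of these data known. Named genes were the 5 members and their paralogs, list genes beyond 2-fold with at least 1 CPM (at most 6 a list), Hsf1, Hspa8, Hspa1a, Hspa1b, Mapk14 and Mapkapk2, and the 5 genes nearest to Hspb1 and 3 nearest to each other member; further genes were named after their values were seen. Lists of stellate cell, cholangiocyte, endothelial, adipose and lymphocyte markers were also summed. Promoter sequences were taken from RefSeq (GRCm38.p6); 1 listed marker, Adgre1, was not found in the count table. Some items are not reported here.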

Additional observations from a re-analysis of the deposited data

Results flagged for a closer look

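The IT ratios of Hspb1 and Bag3 had opposite signs on the 2 backgrounds, with counting intervals that left out 0 on both. For Hspb1 the log2 ratio was −1.03 between VI and VS and 2.20 between FI and FS, a difference of 3.23. For Bag3 it was 0.23 and −0.31, a difference of −0.54. Each group is 1 pooled library, so neither difference was tested.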

How the results depend on the processing

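Direction of the members' ratios was stable across the scalings tried: of 80 alternative log2 ratios, 3 changed sign, all of Hspb8 between VI and VS, where the ratio was close to 0, and 3 moved beyond their counting interval, all of Hspb8 between FI and FS (−0.15 with total counts or FPKM). Between FS and VS the count of members beyond 2-fold went from 2 to 1 with total counts, with FPKM at either pseudocount and with a filter at 5 CPM, each time without Cryab, which the filter removes, and to 3 with a 1.5-fold threshold, where Hspb6 joined. Between VI and VS it went from 1 to 0 with FPKM and a pseudocount of 1 (Hspb1 at −0.96) and to 2 with a 1.5-fold threshold. Genes beyond 2-fold between VI and VS, 419 in all, numbered 107 with FPKM and a pseudocount of 1, 269 with a pseudocount of 0.1, 144 at 5 CPM, 4035 without a filter and 1421 at 1.5-fold. Between FI and FS the 519 genes became 117, 203, 4044 and 1648 with the pseudocount of 1, at 5 CPM, without a filter and at 1.5-fold; between FS and VS the 704 became 242, 353, 4429 and 2133; between FI and VI the 553 became 139, 229, 4197 and 1703. In the additive model 1 member was called with fibril and 0 with DESeq2, where Hspb8 had an adjusted p of 0.0502; without a filter 1519 genes in place of 585 were called with fibril and 740 in place of 174 with training. The difference between IT ratios kept its direction for all 5 members under DESeq2 size factors and total counts. Of the 17 nearest genes, 14 were shared with centred log2 FPKM. The comparisons without VS each kept 1 member beyond 2-fold, Hspb1. No paired analysis was possible because each group has 1 library. Depth limits Cryab most, with 35 to 85 reads, and no value here has an error between mice.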
